A study of Mus musculus with 4 samples.

Results

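The collagen genes Col4a1, Col4a2, Col6a2, Col12a1 and Col18a1 differed between C2C12 cells kept with and without the compound labelled Bex, and they did not all differ the same way. Col6a2 was 2.07-fold higher with Bex, and the other 4 genes were 1.64-fold to 1.88-fold lower. These 5 genes are all the listed collagen genes that carry a single symbol in the authors' deposited table of transcript clusters at 1.5-fold or more, out of 536 genes named there and out of 44 collagen symbols looked for. The other 39 collagen symbols were not analysed here, so the split describes these 5 genes and not the collagen family.

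C2C12 is a mouse myoblast line whose cells can fuse into myotubes. Ctrl cells were brought to confluence and then held for 48 h in the basal form of an adipogenesis medium, and Bex10 cells were held for 48 h in the same medium with 10 µM Bex, so both groups share the medium and the time. The labels do not spell Bex out; from what is known of the study it is bexarotene, a ligand that activates the retinoid X receptors. Each group had 2 arrays, for 4 arrays in all, and this number limits the precision of every value. The labels speak of 2 cell batches but tie no array to either, so the spread between arrays may be partly technical. All cells come from a single established line, in culture.

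Collagens are matrix proteins built from 3 chains wound into a triple helix, and different family members build different structures. Type IV chains form the sheet-like network of basement membranes, the layer that surrounds each muscle fibre and fat cell. Type XVIII is a collagen of the same layer that carries heparan sulphate chains, type XII sits on the surface of collagen fibrils, and type VI forms beaded filaments between basement membrane and fibrils. In human muscle, inherited defects of types VI and XII cause related muscle disorders.

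The genes were selected by the same contrast on the same 4 arrays, since the authors' deposited table holds only clusters with a fold of 1.5 or more and a p-value under 0.05 in the authors' own analysis. Their differences are therefore given as a description and without a test. Of the 35557 clusters measured, 1.57% are in that table, 0.976% as higher with Bex and 0.596% as lower. Nearest to the fold cutoff among the 5 was Col18a1, at a signed fold of -1.69 in the authors' deposited table, and farthest was Col6a2 at 2.05. In the authors' deposited table their FDR p-values lay between 0.323217 and 0.365093, above the usual limit. Collagen clusters just outside the cutoffs have no name in the files used and are not given.

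Col4a1 and Col4a2 encode the chains that assemble into the most widespread type IV collagen. Both genes lie on chromosome 8 as direct neighbours and are read in opposite directions. The annotated RefSeq sequence around their starts is shown here, each on its own strand. It runs from 250 bases before to 50 bases after each start in GRCm38.p6. Any link of this sequence to their differences was not tested. Col4a1 is taken from chr8:11312777-11313076 on the minus strand and Col4a2 from chr8:11312555-11312854 on the plus strand. Capitals mark the 78 bases that both windows hold, which read as reverse complements of each other.
Col4a1: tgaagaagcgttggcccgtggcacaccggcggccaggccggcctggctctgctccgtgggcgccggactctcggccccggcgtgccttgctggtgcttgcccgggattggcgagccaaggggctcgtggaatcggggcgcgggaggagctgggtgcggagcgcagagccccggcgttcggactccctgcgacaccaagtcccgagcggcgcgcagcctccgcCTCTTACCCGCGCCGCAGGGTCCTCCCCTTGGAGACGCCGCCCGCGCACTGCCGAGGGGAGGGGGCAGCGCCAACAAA
Col4a2: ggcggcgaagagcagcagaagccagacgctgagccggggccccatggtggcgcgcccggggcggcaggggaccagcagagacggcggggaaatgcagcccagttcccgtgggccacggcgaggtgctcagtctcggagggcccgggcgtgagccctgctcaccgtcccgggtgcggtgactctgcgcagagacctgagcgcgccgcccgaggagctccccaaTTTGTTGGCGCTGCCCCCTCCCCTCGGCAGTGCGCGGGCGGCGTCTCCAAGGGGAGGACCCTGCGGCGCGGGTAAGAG
The annotated starts of the pair in this table are 21 bases apart, and the shared stretch is 26% of each window. Of all 32851 promoter windows in the table, 10.8% overlap a window of another gene on the opposite strand, so the arrangement itself is not rare. The windows are rich in G and C, at 74% for Col4a1 and 73.7% for Col4a2, against a median of 52.7% over all windows, and 4.77% and 5.1% of all windows hold as much.

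**Figure D1:**
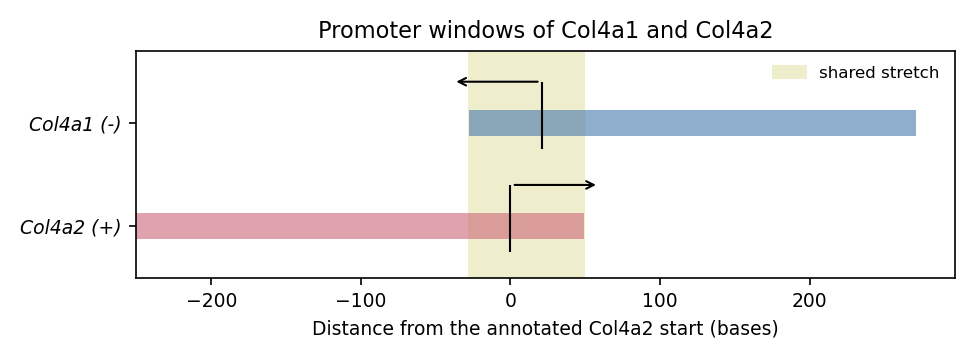
Promoter windows of Col4a1 (upper bar, minus strand) and Col4a2 (lower bar, plus strand) on an axis of bases from the annotated Col4a2 start; vertical lines mark the annotated starts, arrows the direction of reading and the shaded band the shared stretch. The starts lie 21 bases apart and the band covers 78 bases.

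Col4a1 read 8.23 and 8.17 on Ctrl arrays 1 and 2, and 7.41 and 7.23 on Bex10 arrays 1 and 2 (log2 RMA values, the scale of every level below). Both Bex10 arrays lay below both Ctrl arrays, with a gap of 0.76 between the nearest arrays of the groups, against 0.0589 between the Ctrl arrays and 0.175 between the Bex10 arrays. The log2 difference, Bex10 minus Ctrl, was -0.88 ± 0.101 (SE of the limma fit, n = 2 per group), or 1.84-fold lower.

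Col4a2 read 7.94 and 7.79 on Ctrl arrays 1 and 2, against 6.98 and 6.99 on Bex10 arrays 1 and 2. The Bex10 arrays were again the lower ones, 0.796 below the nearest Ctrl array, and were 0.0181 apart from each other. Its log2 difference was -0.88 ± 0.094 (SE, n = 2 per group), or 1.84-fold lower.

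The log2 differences of the type IV pair were 0.0028 apart. That closeness is finer than the arrays can resolve, because the same-numbered pairs of arrays gave -0.82 and -0.94 for Col4a1 and -0.96 and -0.80 for Col4a2. The larger difference was in the second pair for Col4a1 and in the first for Col4a2. Replicate numbers alone define these pairs and do not establish a matching of arrays, here and below. Levels of the chains cannot be set against each other, since each cluster has its own probes. In bulk samples such as these, fewer cells of a type and less RNA per cell cannot be told apart, for these and all genes below.

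Col18a1 encodes the core protein of type XVIII collagen, whose end fragment is released as endostatin, an inhibitor of blood vessel growth. It read 8.17 and 8.25 on Ctrl arrays 1 and 2, against 7.44 and 7.55 on Bex10 arrays 1 and 2. The groups did not overlap, and the gap of 0.618 between them was the narrowest of the 5 genes. The log2 difference was -0.72 ± 0.092 (SE, n = 2 per group), or 1.64-fold lower, with -0.73 in the first pair and -0.70 in the second. RefSeq lists 2 windows for this gene, at chr10:77166481-77166780 and chr10:77113656-77113955, both on the minus strand. The array cluster combines its probes over the gene into a single value, so transcripts from either start are not told apart here.

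Col12a1 encodes the chain of type XII collagen, which binds along fibrils and helps tie them to other matrix proteins. It read 8.40 and 8.44 on Ctrl arrays 1 and 2, against 7.55 and 7.47 on Bex10 arrays 1 and 2. Bex10 arrays lay 0.856 or more below the Ctrl arrays, and arrays of a group were 0.0412 and 0.0726 apart, a closer agreement in both groups than Col4a1 showed. The log2 difference of -0.91 ± 0.0821 (SE, n = 2 per group) was the largest of the 4 lower genes, at 1.88-fold lower. The same-numbered pairs gave -0.86 and -0.97. On chromosome 9 its neighbours are Cd109 and Cox7a2.

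Col6a2 encodes a chain of type VI collagen and was the single collagen gene of the 5 on the higher side. It read 7.68 and 7.53 on Ctrl arrays 1 and 2, against 8.75 and 8.55 on Bex10 arrays 1 and 2. Here both Bex10 arrays were the high ones, with a gap of 0.877 above the Ctrl arrays, while the arrays of a group were 0.145 and 0.195 apart. The log2 difference was 1.05 ± 0.116 (SE, n = 2 per group), with 1.07 in the first pair and 1.02 in the second. Col6a2 thus had the largest difference of the 5 genes and also the largest distance between replicate arrays. Its partner chains in the type VI trimer, encoded by Col6a1 and Col6a3, were not analysed here.

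As the gene that went against the others, Col6a2 is shown with the first of its 2 RefSeq windows, chr10:76623355-76623654 in GRCm38.p6 on the minus strand. Capitals mark the GC box, GGGCGG or its other-strand form CCGCCC, the motif that Sp1-type factors bind.
Col6a2: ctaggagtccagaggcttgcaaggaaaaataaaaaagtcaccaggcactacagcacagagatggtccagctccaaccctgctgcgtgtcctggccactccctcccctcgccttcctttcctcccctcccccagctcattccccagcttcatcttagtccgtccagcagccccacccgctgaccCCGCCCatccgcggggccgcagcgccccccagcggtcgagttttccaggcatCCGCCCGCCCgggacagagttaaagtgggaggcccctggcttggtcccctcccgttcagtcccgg
This window holds 3 matches, counting those that overlap each other separately, and the other Col6a2 window holds 1. The windows of Col4a2 and the first window of Col18a1 also hold 3, that of Col4a1 holds 1 and the second of Col18a1 holds 0. The motif occurs in 35.7% of all windows, so its presence on both sides of the split sets no gene apart. The CCAAT box (CCAAT or ATTGG) is in 37.4% of all windows. It had 1 match each in Col4a1, Col4a2 and the first Col18a1 window. In the second Col18a1 window and in both Col6a2 windows it had 0. Col6a2 is the only gene on the higher side, so these counts cannot be tied to direction. A link of either motif to the split was not tested. The hexamer AGGTCA or TGACCT, which nuclear receptors including the retinoid X receptors bind, is in 16.3% of all windows, and TATAAA or TTTATA in 13.6%. Only exact matches were sought, and neither was found in the windows of these genes. This says nothing of variant forms of these motifs or of sites elsewhere. Windows were found for 4 of the 5 genes, and Col12a1 is named only.

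**Figure D2:**
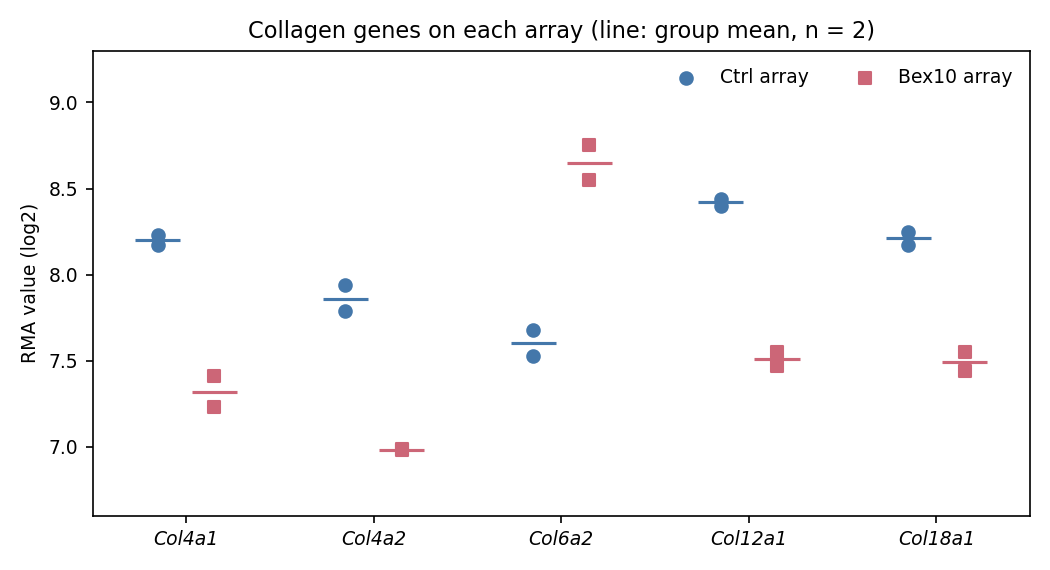
RMA values (log2, vertical axis) of the 5 collagen genes on each of the 4 arrays, with circles for Ctrl arrays, squares for Bex10 arrays and lines for the group means (n = 2). The squares lie above the circles for Col6a2 and below them for the other 4 genes; the axis does not start at 0, and levels of different genes are not comparable.

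Across the 5 genes the gap between groups ran from 0.618 to 0.877, whereas replicate arrays of a group were 0.0181 to 0.195 apart. Groups that do not overlap are common in this data set, at 44.7% of all clusters (20.6% with Bex10 higher and 24.2% with Bex10 lower), and the selection of the table favours them. No array stood at the same end throughout. Ctrl 1 read above Ctrl 2 for 3 genes and below it for 2, and Bex10 1 read above Bex10 2 for 3 genes and below it for 2. The median SD within groups was 0.0757 for these genes against 0.116 for all clusters, which a selection by p-value also favours.

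In size the differences were well inside the range of the experiment. A log2 difference at least as large as that of Col6a2 was seen in 575 clusters, or 1.62% of all, and 342 of them were higher with Bex. For Col12a1 the count was 841 clusters (2.37%), for Col4a2 929 (2.61%), for Col4a1 937 (2.64%) and for Col18a1 1536 (4.32%). The clusters of the 5 genes had mean values above those of 69.5% to 76.8% of all clusters, and so were not among the lowest 30% of cluster means.

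**Figure D3:**
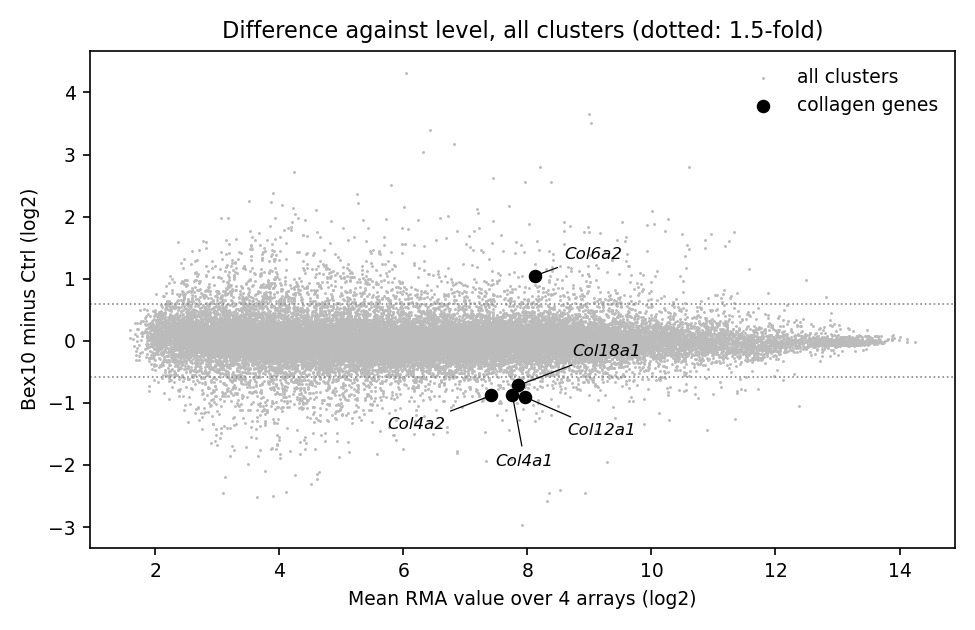
Log2 difference (Bex10 minus Ctrl, vertical axis) against the mean RMA value over the 4 arrays (log2, horizontal axis) for all 35557 clusters in grey, with the 5 collagen genes in black and dotted lines at 1.5-fold. Col6a2 lies above the upper line at 1.05 and the other 4 below the lower line, between -0.91 and -0.72.

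The authors' deposited table gave the same order apart from the type IV genes and Col12a1, which lay close together. Its signed fold was -1.79 for Col4a1, -1.86 for Col4a2 and -1.85 for Col12a1. In the authors' deposited table Col6a2 averaged 8.47 with Bex and 7.43 in Ctrl, that is 0.181 and 0.174 below the means of the value table. The offset was nearly the same in both groups, so the difference of 1.04 from the authors' deposited table was close to the 1.05 of the value table.

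Col6a2 and Col18a1 lie on the same chromosome, 10, and differed in opposite directions. Between them RefSeq places 3 protein-coding genes, Col6a1, Pcbp3 and Slc19a1, and the authors' deposited table has no cluster under these names.

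The clusters most like each gene were sought among the other 544 named clusters, by the distance between the 4 arrays' log2 values after each cluster was centred on its own mean. Small distances are easy to find over 4 arrays, and these values are a description. For Col4a1 the nearest were Sdpr, a protein of caveolae, at 0.0514, Sesn1, a sestrin of the stress response, at 0.0584, and Il18, an interleukin, at 0.0839. Col4a2 came 21st for Col4a1, at 0.151, and Col12a1 came 8th, at 0.107. By this measure the type IV genes were not each other's nearest match. All these distances are below the 0.175 between the Bex10 arrays of Col4a1, and all candidates were selected by the same contrast. The ranks therefore do not resolve how alike the pair is.

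For Col4a2 the nearest was Actg2, a smooth muscle actin, at 0.0283, followed by Slc43a3 at 0.0561 and Clec2d at 0.064. For Col12a1 they were Mr1 at 0.0489, the growth factor binding protein gene Igfbp3 at 0.0725 and Rnd3 at 0.0732. Col18a1 lay nearest to the transcription factor gene Nfib at 0.0295, to Efhd1 at 0.041 and to Ahnak at 0.0421. Col6a2 lay nearest to Neb, which encodes the giant thin filament protein nebulin, at 0.078, then to Nsdhl, an enzyme of cholesterol synthesis, at 0.0888 and to Pi15 at 0.0904. Its distance to the other 4 collagen genes was 1.79 to 1.97, as its opposite direction requires.

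Genes that make, bind or break down collagen were counted from 6 lists, of which 183 symbols besides the 5 collagen genes were looked for. Of these, 18 were named by the authors' deposited table, 4 higher and 14 lower, with a median log2 difference of -0.78. Among all its clusters 347 were higher and 212 lower with a median of 0.67, and over all 35557 clusters the median was -0.012. As the names come from a table selected by the same contrast, these counts describe named genes only. In limma's test over all clusters 0 of the 18 passed at an adjusted p of 0.05, as did 0% of all clusters. At an unadjusted p under 0.05 limma had 4189 clusters, or 11.8% of all. An alternative fit let the prior variance depend on the mean value and is called the variance-trend fit. It passed 11 of the 18, 3 higher and 8 lower. Over all clusters it passed 1.20%, 0.762% as higher and 0.439% as lower. The 18 were already selected by this contrast on these arrays, so their share cannot be set against that of all clusters. Without Ctrl 1, Ctrl 2 or Bex10 1 that fit passed 0 of the 18, and without Bex10 2 it passed 2, where the group left with a single array was assumed to vary like the other.

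Beside the type IV genes, the other named basement membrane genes were the nidogens, which link type IV collagen to laminin. They were split like the collagens, with Nid1 at a log2 difference of 0.68 ± 0.0784 and Nid2 at -1.45 ± 0.0969 (SE, n = 2 per group). Among processing genes, Pcolce and Pcolce2, which speed the removal of the procollagen end piece, were at -0.81 and -1.10, and Tll1, a protease that removes it, was at 1.24 from low Ctrl values of 4.61 and 4.38. Nid1, Nid2, Pcolce, Pcolce2 and Tll1 each passed the variance-trend fit. In limma's main test their adjusted p-values were 0.0812 to 0.154. For genes selected by the same contrast, passing a fit is no independent support, here and below.

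All 6 named proteins of collagen-bound matrix were lower, from Prelp at -1.47 to Thbs2 at -0.60, and 3 of them (Prelp, Thbs1 and Matn2) passed the variance-trend fit. Of 7 named genes of collagen turnover 2 were higher and 5 lower. The higher ones include Fap, whose Ctrl values of 3.31 and 3.35 lie under the limit of 4.57 (the lowest 30% of cluster means), so its size is uncertain. Mmp2, a gelatinase that cuts type IV collagen, was at -0.84 and the metalloprotease inhibitor Timp1 was at -0.78. Both passed the variance-trend fit, as did the protease gene Adamts1 at 0.67. None of 22 collagen receptor symbols was named in the table.

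**Figure D4:**
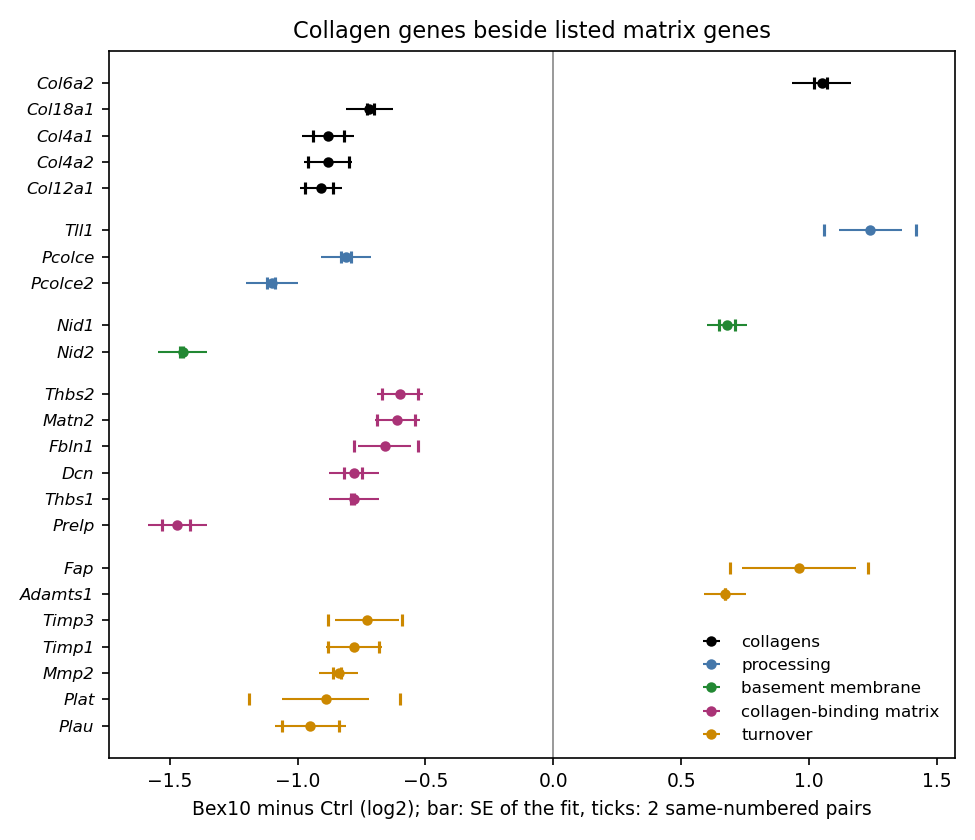
Log2 difference (Bex10 minus Ctrl, horizontal axis) of the 5 collagen genes in black and of the 18 other named genes from the matrix lists, coloured by list. Points are means (n = 2 per group), bars the SE of the limma fit and ticks the differences of the 2 same-numbered pairs of arrays; Col6a2 and 4 other genes lie right of 0.

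Markers of cell types were also looked for, but only those in the authors' deposited table have a name. As that table was selected by the same contrast, each named marker was bound to differ. The other markers could not be read. Of 8 fibroblast markers 4 were named, with Cd34 at a log2 difference of -1.21, Dcn at -0.78 and Ly6a at -0.57, but Fap at 0.96. Their summed linear level was 5210 to 5220 on the Ctrl arrays and 3400 to 3550 on the Bex10 arrays, most of it from Ly6a, the brightest cluster of the list at a Ctrl mean of 12.26. For smooth muscle, 2 of 5 were named (Tagln and Actg2), with 760 to 832 on the Ctrl arrays and 426 to 431 on the Bex10 arrays. Of the adipocyte markers 2 of 5 were named (Fabp4 and Plin1), with 164 to 193 and 772 to 932, and of the macrophage markers 1 of 5, Cd14, with 81.8 to 107 and 173 to 176. The only named marker of the myogenic lineage, out of 8, was Pax7, at 764 to 811 and 512 to 528, and 0 of 6 endothelial markers were named. Among the markers looked for, the cell line label could thus be set against Pax7 alone. Other muscle genes, such as Neb above, were not on that list. The part of these shifts in the collagen differences was not tested.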

How the data were processed

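RNA from 2 Ctrl and 2 Bex10 samples of C2C12 cells was amplified, biotin-labelled and run on the Affymetrix Mouse Gene platform, according to the labels. Per the labels, the authors used Expression Console to make RMA values (log2) from core exons; RMA evens out the overall level of the arrays. The authors' deposited table of 559 clusters was made with Transcriptome Analysis Console, a tool listed in the submitters' processing notes. Per the file headers it holds each group's log2 average, the fold change as a signed score that is negative where Ctrl is higher, and a p-value from ANOVA with its FDR-adjusted form. Software versions, genome build and annotation are not given in the sources used. Of these clusters 545 have a single symbol, and clusters outside the table have no name here.

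Bex10 minus Ctrl was fitted over all 35557 clusters with limma 3.58.1 (lmFit, eBayes) in R 4.3.3, with no filter or covariate and Benjamini-Hochberg adjustment. Pearson's r between arrays across clusters was 0.9862 to 0.991, and array medians were 5.76 to 5.8. No 2 arrays shared more than 58 identical values. The fit was tested on simulated data. Genes were named by a rule: the 5 collagen genes, every named gene of the 6 matrix lists (1 gene is not reported here and is left out of the counts), and the 3 nearest clusters to each collagen gene. The genes and lists were chosen with earlier results of these data known. Promoter sequences and neighbours came from RefSeq tables of GRCm38.p6. Python 3.11.15 with pandas 2.3.3, numpy 2.4.6 and matplotlib 3.10.9 was used for the rest.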

Additional observations from a re-analysis of the deposited data

How the results depend on the processing

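Without array Ctrl 1, Ctrl 2, Bex10 1 or Bex10 2 in turn, the log2 difference was -0.96 to -0.79 for Col4a1, -0.96 to -0.81 for Col4a2, 0.95 to 1.14 for Col6a2, -0.95 to -0.88 for Col12a1 and -0.77 to -0.66 for Col18a1. With the authors' deposited averages, a median shift, quantile normalization or the replicate number as a block, each of the 5 kept its direction and moved by less than the SD between replicates, with Col18a1 between -0.76 and -0.69. The block cannot change a mean difference in this balanced design. The median shift and quantile normalization could change little, since RMA had already evened out the arrays, with medians of 5.76 to 5.8. Same-numbered arrays did not deviate together (correlation 0.00786 across clusters), and with 2 pairs the numbers do not establish a pairing. The count of clusters past an adjusted p of 0.05 in limma was 0, with 4189 at an unadjusted p under 0.05. It stayed at 0 with the replicate block, a median shift, quantile normalization and any array left out. It became 427 in the variance-trend fit (0 without either Ctrl array, 23 without Bex10 1 and 32 without Bex10 2 in that fit, also chosen later), 105 with the lowest 30% of clusters left out and 297 without 6669 clusters of low ID, the last being a choice made with the values in view. For the 18 named genes of the 6 matrix lists, without the 5 collagen genes, the count went from 0 to 11, 2 and 9 under these settings and stayed at 0 with the replicate block and without any of the 4 arrays. The variance-trend fit without an array gave 0 to 2 for these lists. The cause of these changes was not tested.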

Other observations

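Several matrix genes outside the lists, chosen after their values were seen, stood beside the collagen genes in the authors' deposited table. Omd, osteomodulin, a leucine-rich proteoglycan of bone matrix, read 5.90 and 5.91 on Ctrl arrays 1 and 2, against 4.41 and 3.65 on Bex10 arrays 1 and 2, a log2 difference of -1.87 ± 0.283 (SE, n = 2 per group). Its Bex10 values lie below the limit of 4.57 under which clusters were counted as dim, so the size is uncertain. Adam12, a membrane metalloprotease of fusing muscle cells, read 7.21 and 7.25 in Ctrl and 5.71 and 5.75 in Bex10, a 2.83-fold lower mean. Sulf2, which removes sulphate from heparan sulphate chains such as those of type XVIII collagen, was at -1.34 ± 0.135. Colec12, a scavenger receptor with a collagen-like stretch, was at -0.72 ± 0.0815. The latent TGF-beta binding proteins named there were split in direction, with Ltbp1 at -0.64 and Ltbp2 at -0.76 but Ltbp3 at 0.67. Members of that family outside the authors' deposited table could not be read. The protease inhibitor Serpine2 was at 0.81, and Mxra7 and Mxra8, named for matrix remodelling, were both at -0.59. In limma's main test the adjusted p-values of these later genes were 0.0682 to 0.191, so none passed. Omd and Serpine2 did not pass the variance-trend fit either, while the others did.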
